A study of Mus musculus with 2 samples.

Results

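The genes described here encode 3 linked parts of the replication fork: Pcna, the sliding clamp, Rfc1, Rfc2, Rfc3, Rfc4 and Rfc5, the subunits of the clamp loader replication factor C, and Gins1, Gins2, Gins3 and Gins4, the subunits of the GINS complex. They were taken by symbol, and all 10 were found in both count matrices, among 32285 features. The cells were mouse hematopoietic stem cells, labelled as blood and kept in suspension culture for 48 h. One culture received RO-3066 and the other its DMSO vehicle, and each gave 1 single-cell library of the 10x Genomics 3' kind, in which each captured transcript is counted once through a unique molecular identifier (UMI). Strain, age, dose and the number of animals are not given in the labels. With 1 library per treatment there is no replicate error and no test, so every interval below is a 95% interval of counting error only, and a difference between libraries cannot be told apart from a difference between cultures.

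During DNA synthesis the clamp loader uses ATP to open the clamp and close it around DNA at a primer end, where the clamp then tethers the DNA polymerases to their template. GINS joins Cdc45 and the MCM ring to form the active helicase that unwinds the parental strands ahead of them. Transcripts of these genes are known to rise as cells enter S phase, and resting stem cells are known to hold few of them.

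After filters on cell quality and doublets, 3680 RO-3066 cells with 163024754 UMIs and 5832 DMSO cells with 174222342 UMIs were described. The median cell held 34685.5 UMIs in RO-3066 and 23928.5 in DMSO, so levels are given as counts scaled to the total UMIs of the cells pooled (CPM, UMIs of a gene per 1000000 UMIs), and shares of positive cells after thinning every cell to 10000 UMIs (3556 RO-3066 and 5748 DMSO cells). By scores computed without the 10 genes, 84.1% of the RO-3066 cells and 61.1% of the DMSO cells were called G2M, and 12.7% and 33.5% were called S. The 54 G2M genes themselves summed to 8334 CPM in RO-3066 and 10107 CPM in DMSO, with a median log2 ratio of -0.21. Cells with at least 1% of their UMIs from Pf4, the platelet factor 4 gene, are called Pf4-high: 256 RO-3066 cells (6.96%) and 452 DMSO cells (7.75%). Beside Pf4, which sets this group, the megakaryocyte gene Itga2b had 572 CPM in Pf4-high and 221 CPM in other RO-3066 cells, and 431 and 115 CPM in the DMSO cells, while Gp6 of the same list was at or near 0 in both libraries. Over all cells the 11 stem cell markers summed to 506 CPM in RO-3066 and 377 CPM in DMSO, with 2 of the 8 that reached 20 CPM at least 1.5-fold higher and 0 lower. Those were Pdzk1ip1 at 2.62-fold and Esam at 1.57-fold, while Procr had 4.26 and 4.63 CPM. Ly6a went the other way, short of the limit, with 14.1 CPM in RO-3066 and 20.8 CPM in DMSO (0.678-fold). The erythroid list summed to 487 CPM in RO-3066 and 252 CPM in DMSO, mostly from Hbb-bt. Of that list Tfrc went the other way, with 17.5 and 39.0 CPM. The neutrophil and monocyte list summed to 142 and 145 CPM (Lyz2 1.59-fold, Prtn3 0.728-fold), and the mast cell and basophil list to 9.43 and 7.58 CPM. The lymphoid list summed to 65.3 and 39.0 CPM, nearly all from Nkg7, with Cd3e and Il7r at 0. The 2 libraries shared 7 cell barcodes.

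Promoter sequences, of 300 bases that end just past the annotated start, were looked up because levels of the 10 genes differed between the called phases. The RefSeq table for GRCm38.p6 held 6 of the 10 genes. Capitals mark an E2F-type heptamer (TTCCCGC is one form, TTCGCGC is another, TTGCCGC is the third and TTGGCGC is the last, on either strand). Of the 32851 promoters searched, which are not the whole table, 9.57% hold one. One promoter is shown for each of the 3 complexes, Pcna at chr2:132253131-132253430 (minus strand), Rfc3 at chr5:151651159-151651458 (minus strand) and Gins3 at chr8:95633309-95633608 (plus strand).

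Pcna: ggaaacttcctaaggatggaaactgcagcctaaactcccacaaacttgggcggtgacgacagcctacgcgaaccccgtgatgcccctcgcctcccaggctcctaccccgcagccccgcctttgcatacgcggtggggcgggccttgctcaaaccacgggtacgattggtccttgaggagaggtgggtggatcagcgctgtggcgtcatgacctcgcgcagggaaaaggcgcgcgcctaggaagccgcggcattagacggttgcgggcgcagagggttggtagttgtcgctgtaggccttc

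Rfc3: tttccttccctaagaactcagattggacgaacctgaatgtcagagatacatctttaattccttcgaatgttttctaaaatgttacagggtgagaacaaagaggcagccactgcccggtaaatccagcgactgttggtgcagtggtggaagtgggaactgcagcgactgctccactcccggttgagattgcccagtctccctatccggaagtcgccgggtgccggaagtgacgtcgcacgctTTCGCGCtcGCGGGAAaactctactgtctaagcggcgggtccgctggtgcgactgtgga

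Gins3: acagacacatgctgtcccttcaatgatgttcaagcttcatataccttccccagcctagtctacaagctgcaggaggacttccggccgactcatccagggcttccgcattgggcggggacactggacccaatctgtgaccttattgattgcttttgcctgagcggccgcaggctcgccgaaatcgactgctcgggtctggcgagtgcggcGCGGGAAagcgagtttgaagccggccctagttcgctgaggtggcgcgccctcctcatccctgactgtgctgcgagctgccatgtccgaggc

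The Rfc3 window held 2 heptamers, starting at positions -9 and 1 relative to the annotated start, and the Gins3 window held 1, starting at position -41. In the Pcna window none of these heptamers was found. Rfc1 and Rfc4 held the heptamer as well, and in the Rfc5 window none was found. These are letter matches only.

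Pcna, whose protein rings the DNA and docks polymerases and repair enzymes, had the most UMIs of the 10 in each library. Its gene lies at chr2:132249162-132253314 (mm10, minus strand). Over all cells it had 220.3 CPM (35921 UMIs) in RO-3066 and 223.1 CPM (38865 UMIs) in DMSO, a ratio of 0.988 with an interval that included 1 and a log2 ratio of -0.02. The clamp transcript was thus at nearly the same level in both libraries when all cells were pooled. At 10000 UMIs per cell, 86.4% of RO-3066 cells (85.2 to 87.5%) and 84.7% of DMSO cells (83.8 to 85.7%) held a Pcna UMI, against 97.3% and 96.6% without thinning. Its counts were more uneven between cells in DMSO, where the variance of the thinned counts was 1.46 times their mean, against 1.23 times in RO-3066.

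The clamp loader genes differed from each other in how they compared between libraries. Rfc1, the large subunit (chr5:65261850-65335670, minus strand), had 175.9 CPM in RO-3066 and 173.1 CPM in DMSO. Rfc2 (chr5:134581366-134601805, plus strand), a small subunit also used by alternative loaders, had 210.6 CPM (34328 UMIs) in RO-3066 and 141.8 CPM (24696 UMIs) in DMSO, a ratio of 1.49 (1.46 to 1.51) and a log2 ratio of 0.57. This was the widest ratio among the 10 genes over all cells, and it put Rfc2 at percentile 96.4 of the genes of at least 20 CPM. Rfc3 (chr5:151642756-151651242, minus strand), another small subunit, had 90.7 and 75.9 CPM, 1.19-fold (1.17 to 1.22). Rfc4 (chr16:23113943-23127737, minus strand) had 127.0 and 126.9 CPM, and Rfc5 (chr5:117378103-117389047, minus strand) had 92.6 and 95.1 CPM. Of the UMIs of all 5 loader genes, Rfc2 supplied 30.2% in RO-3066 and 23.1% in DMSO, so the makeup of the loader transcripts was tilted to this subunit in RO-3066. All 5 loader genes were detected together in 20.1% of thinned RO-3066 cells and 16.5% of thinned DMSO cells, and in 78.7% and 65.1% without thinning.

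The GINS genes also differed among themselves. Gins2 (chr8:120578633-120589304, minus strand), the Psf2 subunit, had 76.3 CPM (12437 UMIs) in RO-3066 and 52.9 CPM (9208 UMIs) in DMSO, 1.44-fold (1.41 to 1.48). Gins4 (chr8:23226616-23237659, minus strand), the Sld5 subunit, went the other way with 49.4 CPM in RO-3066 and 56.2 CPM in DMSO, 0.880-fold (0.854 to 0.906). Of the GINS UMIs, Gins2 held the largest share in RO-3066, 48.8% there against 38.4% in DMSO, and Gins4 held 31.6% in RO-3066 and, as the largest share in DMSO, 40.8%. Gins1 (chr2:150905400-150931280, plus strand), the Psf1 subunit, had 18.6 and 17.7 CPM, and Gins3 (chr8:95633453-95645060, plus strand), the Psf3 subunit, 12.02 and 10.97 CPM. At 10000 UMIs per cell Gins1 was seen in 15.9% of RO-3066 and 17.2% of DMSO cells, the opposite order to its CPM, so no order is read from these shares. Gins3 was seen in 11.6% and 10.5%, Gins2 in 49.0% and 40.8%, and Gins4 in 40.8% and 44.8%. All 4 GINS genes were found together in 0.562% of thinned RO-3066 and 0.470% of thinned DMSO cells.

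**Figure D1:**
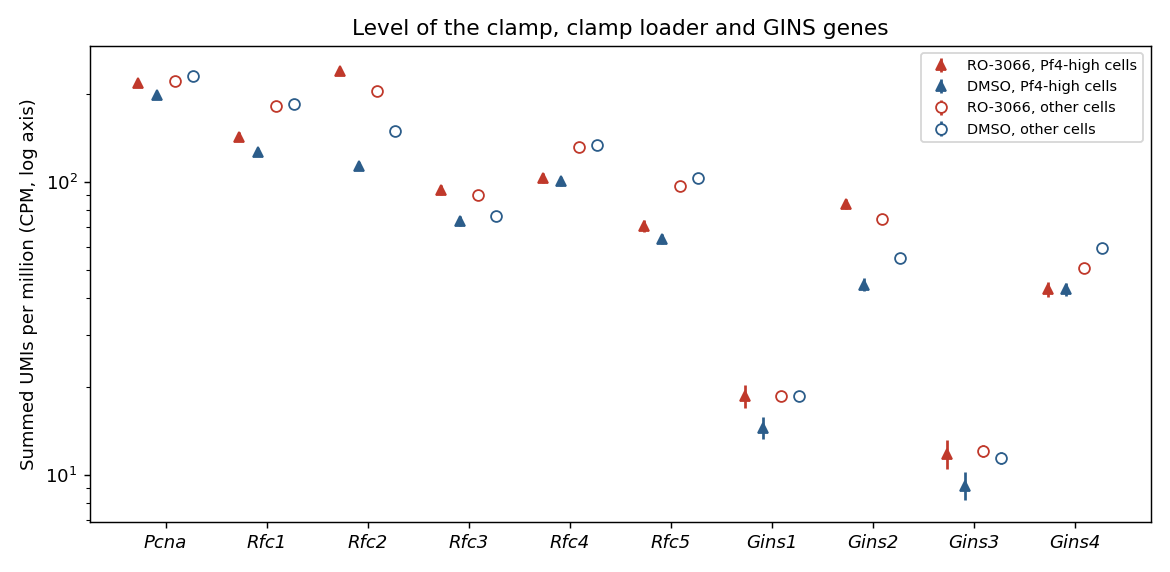
Levels of the 10 genes in CPM on a log axis, for Pf4-high cells (triangles) and other cells (circles) of each library, with 95% counting intervals of the summed UMIs as bars. Rfc2 in Pf4-high cells stood at 239.7 CPM in RO-3066 and 113.0 CPM in DMSO, the widest gap drawn, while the Gins4 values of the Pf4-high cells were 43.0 and 42.95 CPM.

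Counted over all cells, 7 of the 10 log2 ratios were above 0, with a median of 0.04. The median over the 5764 genes that reached 20 CPM in 1 library or both was -0.06. Among the members above 0, the intervals of Rfc1, Rfc4 and Gins1 included 1, and the Rfc4 log2 ratio was 0.00098. With median-ratio scaling 9 of the 10 were above 0, and with every cell given the same weight 5 were. Of the 8 members that reached the minimum (Gins1 and Gins3 did not), 0 passed a limit of 1.5-fold upward and 0 downward, which 3.35% and 2.24% of all genes counted did. Rfc2 at 1.49-fold and Gins2 at 1.44-fold lay just short of that limit. Per cell rather than as CPM, the 10 genes summed to 47.5 UMIs in RO-3066 and 29.1 UMIs in DMSO, and every member was higher, from 1.30-fold for Gins4 to 2.20-fold for Rfc2. Total UMIs per cell were higher in RO-3066 too, and RNA content and sequencing depth per cell cannot be told apart here.

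In Pf4-high cells all 10 members were above 0, with a median log2 ratio of 0.25, beside -0.11 over 5766 genes counted. With median-ratio scaling these medians were 0.36 and 0.01. Upward 2 of the 8 members that reached the minimum passed the 1.5-fold limit, and downward 0, against 7.34% and 7.28% of all genes counted. Rfc2 had 239.7 CPM (6266 UMIs) in RO-3066 and 113.0 CPM (3900 UMIs) in DMSO, 2.12-fold (2.04 to 2.21). Gins2 had 84.1 CPM (2198 UMIs) and 44.5 CPM (1537 UMIs), 1.89-fold (1.77 to 2.02). Rfc2 and Gins2 had the widest ratios over all cells as well. Rfc2 supplied 36.9% of loader UMIs in RO-3066 and 23.7% in DMSO here. Next came Gins1 with 18.6 and 14.5 CPM, Gins3 with 11.8 and 9.18 CPM and Rfc3 with 94.1 and 73.6 CPM, each about 1.28-fold. Pcna had 216.8 and 198.4 CPM, Rfc1 142.9 and 126.6 CPM, Rfc5 70.6 and 63.8 CPM, Rfc4 103.2 and 100.4 CPM, and Gins4 43.0 and 42.95 CPM. The Rfc4 and Gins4 intervals included 1. At 10000 UMIs per cell, Rfc2 was found in 88.9% of 253 RO-3066 and 73.6% of 447 DMSO Pf4-high cells, Gins2 in 59.7% and 32.4%, and all 5 loader genes together in 18.2% and 10.1%. No difference is read from the Rfc2 pair of shares, since 74.4% of DMSO cells called G1 with no proliferation gene UMI held it too. The DMSO Gins2 share also lay near that of such cells, as given below. Pf4-high cells held a median of 90047.5 UMIs in RO-3066 and 60404.5 in DMSO, and 96.4% and 73.2% of them were called G2M, so depth and phase moved with these ratios, and the part of depth was not tested apart from the bins given below. Of the 49 G2M genes that reached 20 CPM in these cells, 15 were at least 1.5-fold lower and 0 higher. In these cells erythroid genes summed to 226 CPM in RO-3066 and 98.5 CPM in DMSO. Of these, Hbb-bt had 174 and 14.1 CPM, while Tfrc went the other way with 20.7 and 67.4 CPM. Stem cell markers summed to 404 and 224 CPM, of which Pdzk1ip1 had 176 and 62.3 CPM. Neutrophil and monocyte genes summed to 115 and 71.1 CPM, and lymphoid genes to 75.1 and 30.4 CPM. The part of these lists in the ratios was not tested.

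In the other cells all 10 ratios were lower than in Pf4-high cells. There Rfc2 had 205.0 CPM in RO-3066 and 148.9 CPM in DMSO (1.38-fold, 1.35 to 1.40), Gins2 74.8 and 54.9 CPM (1.36-fold, 1.32 to 1.40) and Rfc3 90.0 and 76.5 CPM (1.18-fold). Of the 10 log2 ratios 5 were above 0, that of Gins1 by under 0.01, and the median was -0.01, beside -0.04 over all genes counted. None of the 8 members that reached the minimum passed the limit, where 3.59% of genes did so upward and 2.1% downward. Gins4 was lowest at 50.6 CPM in RO-3066 and 59.4 CPM in DMSO (0.852-fold), followed by Rfc5 at 96.8 and 102.8 CPM and Pcna at 221.0 and 229.2 CPM. Rfc1 had 182.2 and 184.5 CPM, Rfc4 131.5 and 133.5 CPM, Gins1 18.56 and 18.55 CPM, and Gins3 12.1 and 11.4 CPM. The difference between Pf4-high and other cells in these ratios was not tested. Megakaryocyte genes differed between the libraries within the other cells too, where 10 of the 11 that reached 20 CPM were at least 1.5-fold higher in RO-3066 (median log2 ratio 0.92), among them Treml1 with 49.1 and 12.2 CPM and Itga2b with 221 and 115 CPM. Their part in the members' values was not tested.

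**Figure D2:**
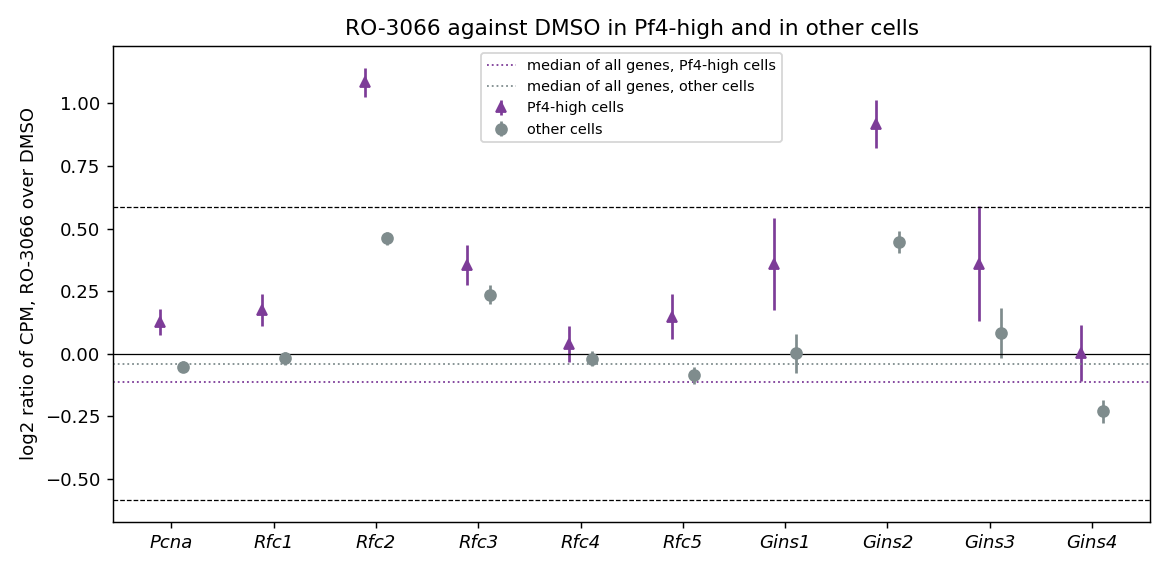
Log2 ratio of CPM, RO-3066 over DMSO, for each gene in Pf4-high and other cells, with 95% counting intervals as bars, dashed lines at 1.5-fold and dotted lines at the medians of all genes counted. Rfc2 and Gins2 in Pf4-high cells lie past the upper line, and Gins4 in other cells lies lowest.

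Within DMSO, Pf4-high cells stood below the other cells for every member. There 0 of the 10 were higher in Pf4-high cells, with a median log2 ratio of -0.37, beside 0.01 over all genes counted. The 2 groups of cells differed in called phase and depth as well. In DMSO 25.3% of Pf4-high and 34.2% of other cells were called S, with medians of 60404.5 and 23289 UMIs. In RO-3066 the S shares were 1.58% and 13.6%, and the medians 90047.5 and 33012.5 UMIs. The part of phase and depth in these ratios was not tested apart from the settings named below. Rfc5, a small loader subunit, had 63.8 CPM in Pf4-high and 102.8 CPM in other DMSO cells (0.620-fold, 0.593 to 0.649), and of the 8 members that reached the minimum it alone passed the 1.5-fold limit, downward, as 7.17% of genes did, while 8.44% did so upward. Rfc1 followed at 0.686-fold and Gins4 at 0.723-fold, while Rfc3 at 0.962-fold had an interval that included 1. In RO-3066 the median was -0.03, no lower than the -0.07 over all genes counted, the intervals of Pcna, Gins1 and Gins3 included 1, and none of the 8 passed the limit, where 7.89% of genes did so upward and 7.47% downward. Rfc5 again stood lowest with 70.6 CPM in Pf4-high and 96.8 CPM in other RO-3066 cells (0.730-fold), and Rfc1 and Rfc4 were both at 0.784-fold. Rfc2 and Gins2 had the opposite sign in the 2 libraries: Rfc2 was 1.17-fold in RO-3066 and 0.759-fold in DMSO, and Gins2 was 1.12-fold and 0.811-fold. In RO-3066 both signs turned with S and G2M cells at equal weight (log2 ratios of -0.05 and -0.04), a setting that rests on 4 Pf4-high cells called S, and that of Gins2 also turned in cells of 15000 to 40000 UMIs (-0.37).

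Split by the share of UMIs from Pf4, Rfc2 separated the libraries step by step. In cells with under 0.01% of UMIs from Pf4 it had 149.4 CPM in RO-3066 (543 cells) and 156.4 CPM in DMSO (571 cells). From 0.01 to 0.1% it had 185.1 and 153.2 CPM, and from 0.1 to 0.3% it had 242.2 and 158.8 CPM. From 0.3 to 1% it had 236.8 and 130.7 CPM, from 1 to 2% 240.3 and 116.4 CPM, and at 2% or more 235.5 CPM (41 cells) and 105.2 CPM (112 cells). The RO-3066 values were thus higher above 0.1% Pf4 than below it, whereas the DMSO values were lower above 0.3%. Gins2 ran from 69.4 CPM to 79.6 CPM across the same bins in RO-3066 and from 60.5 CPM to 42.6 CPM in DMSO. Pcna stood at 240.5 and 241.5 CPM in the lowest bin and at 207.4 and 179.2 CPM in the highest. Rfc5 was lower at high Pf4 in both libraries, with 103.4 and 106.3 CPM in the lowest bin and 62.6 and 57.7 CPM in the highest. Depth moved along these bins as well. In cells of at least 60000 UMIs that were not Pf4-high, Rfc2 had 227.1 CPM in RO-3066 (603 cells) and 111.0 CPM in DMSO (127 cells), a log2 ratio of 1.03, and in Pf4-high cells of that depth 241.1 and 107.7 CPM, a log2 ratio of 1.16. Both groups of deep cells showed the Rfc2 difference, and the cells not Pf4-high include those of 0.1 to 1% Pf4. Gins2 had 80.0 and 46.4 CPM in the deep cells that were not Pf4-high, and 84.8 and 43.9 CPM in the deep Pf4-high cells.

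**Figure D3:**
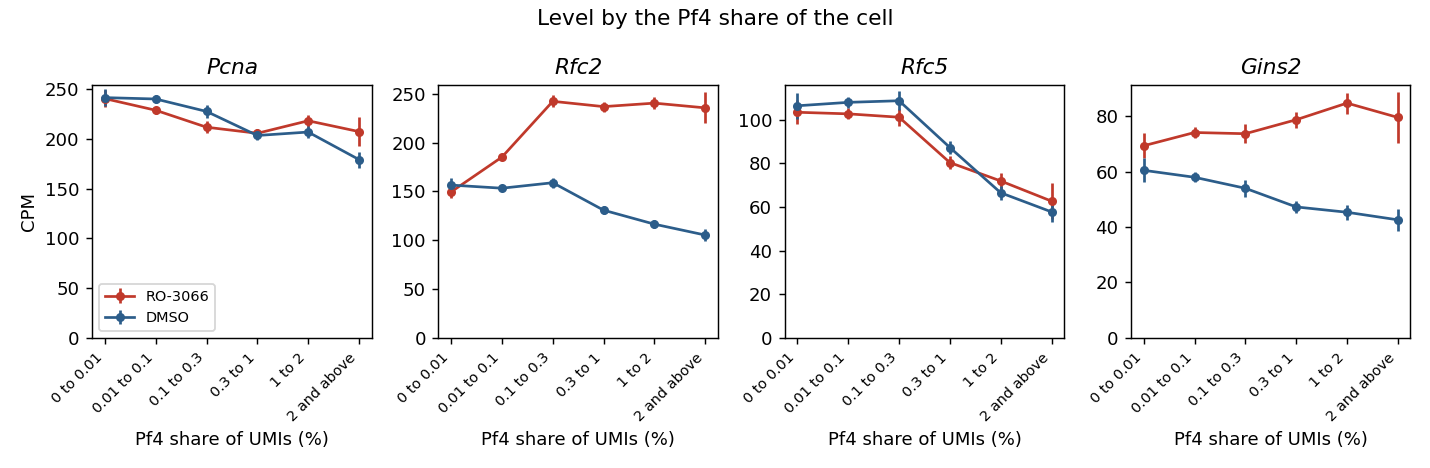
CPM of Pcna, Rfc2, Rfc5 and Gins2 against bins of the percentage of a cell's UMIs from Pf4, for each library, with approximate 95% counting intervals as bars. Rfc2 goes apart between the libraries along the axis, from 149.4 CPM in RO-3066 and 156.4 CPM in DMSO in the lowest bin to 235.5 and 105.2 CPM in the highest.

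Levels of the members differed between the called phases of the cells. All 10 were higher in S than in G2M cells in both libraries, except Rfc2 in RO-3066, at 201.2 CPM in S and 213.4 CPM in G2M, and Rfc2 in DMSO had 163.1 CPM in S and 133.1 CPM in G2M. Pcna had 320.6 CPM in RO-3066 and 328.1 CPM in DMSO in S, 210.4 and 181.0 CPM in G2M, and 141.8 and 184.2 CPM in G1. The phase scores used other S and G2M genes that are known to vary with these, so the order of the phases is a description. Gins2 had 97.5 and 79.3 CPM in S and 74.6 and 42.2 CPM in G2M, and Rfc3 had 131.4 and 114.5 CPM in S and 86.5 and 59.9 CPM in G2M.

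Since the libraries held different shares of called phases, the ratios were also taken within each. In the G2M cells (2992 RO-3066 and 3510 DMSO) 8 of the 10 members were above 0 with a median log2 ratio of 0.23, beside -0.06 over 5787 genes counted. Rfc2 and Gins2, 2 of 8, passed the 1.5-fold limit upward and 0 downward, as 4.35% and 3.04% of all genes counted did. The Gins2 log2 ratio was 0.81, that of Rfc2 0.68 and that of Rfc3 0.52. In S cells (452 and 1926) 7 members were above 0, from -0.12 for Gins4 to 0.30 for Rfc2. Of the 5697 genes counted in S cells, 44.3% were above 0, with a median of -0.04. In G1 cells (112 and 312) 0 of the 10 were above 0, with the median at -0.30 and Gins1 lowest at -0.90. Of the 5830 genes counted in G1 cells, 44.7% were above 0, with a median of -0.05. Fewer cells and UMIs stand behind the G1 values, and Pf4-high cells called S numbered only 4 in RO-3066, so Pf4-high cells were read in G2M alone. There Rfc2 had 242.7 CPM in RO-3066 (244 cells) and 109.4 CPM in DMSO (327 cells), and Gins2 had 84.7 and 38.5 CPM. Both differences were thus as large within called G2M as in all Pf4-high cells.

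**Figure D4:**
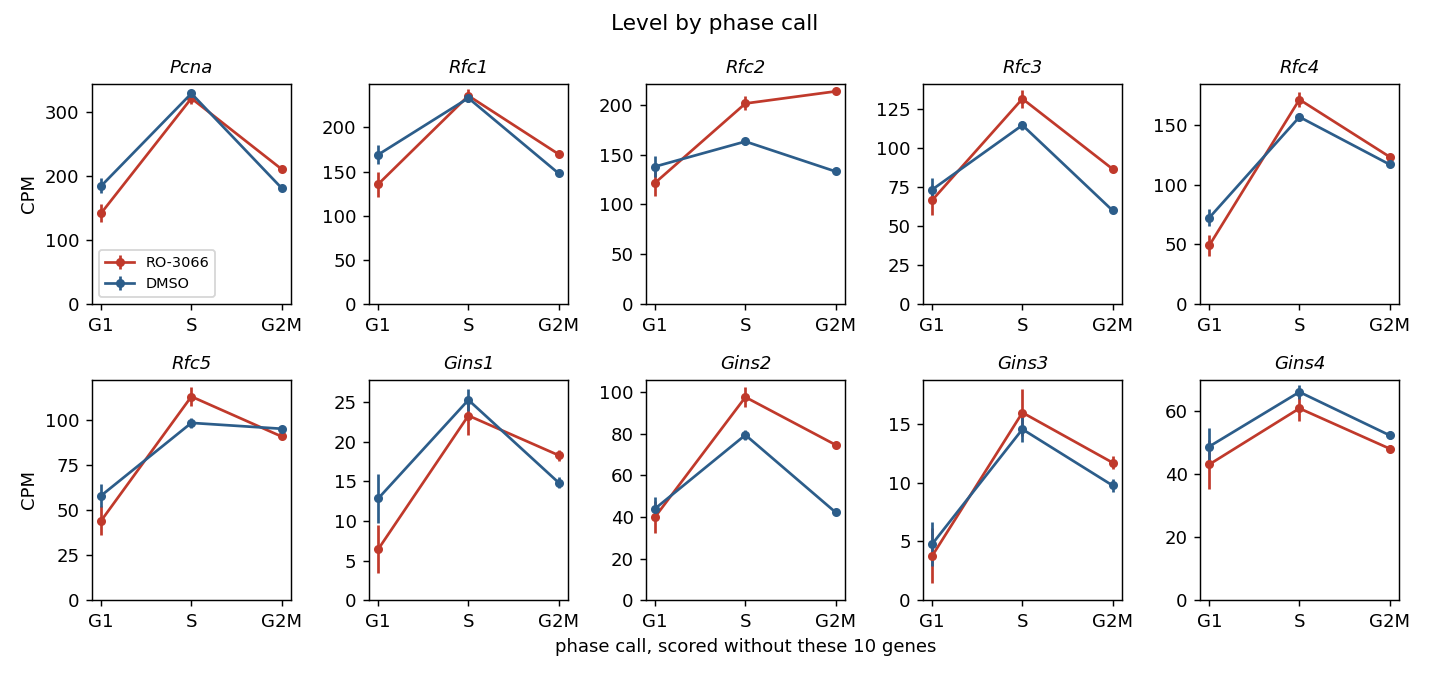
CPM of each gene in cells called G1, S and G2M in each library, phases having been scored without the 10 genes, with approximate 95% counting intervals as bars. S is the highest phase for the genes drawn in both libraries, except Rfc2 in RO-3066, where S was at 201.2 CPM and G2M at 213.4 CPM.

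By depth of the cell, the direction differed in one bin. In cells of 1000 to 15000 UMIs all 10 members were higher in RO-3066, where 57.1% of all genes counted were. All 10 were higher as well in cells of 40000 to 60000 UMIs and of 60000 or more, where 37.6% and 37.2% of genes were. In cells of 25000 to 40000 UMIs 8 were higher, where 44.0% of genes were. In those of 15000 to 25000 UMIs (748 RO-3066 and 2755 DMSO cells) 0 of the 10 were higher, where 50.5% of genes were, with Pcna at 187.7 CPM in RO-3066 and 272.6 CPM in DMSO. In that bin 8.96% of RO-3066 and 48.8% of DMSO cells were called S, the widest gap in S share of the 5 bins. In the bin of 1000 to 15000 UMIs, given above, the S share was lower in RO-3066 too, at 8.73% and 28.0%. In this bin 86.0% and 27.2% were called G2M, and the rest of the cells with a call were called G1. The part of the phase mix in these results was not tested.

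**Figure D5:**
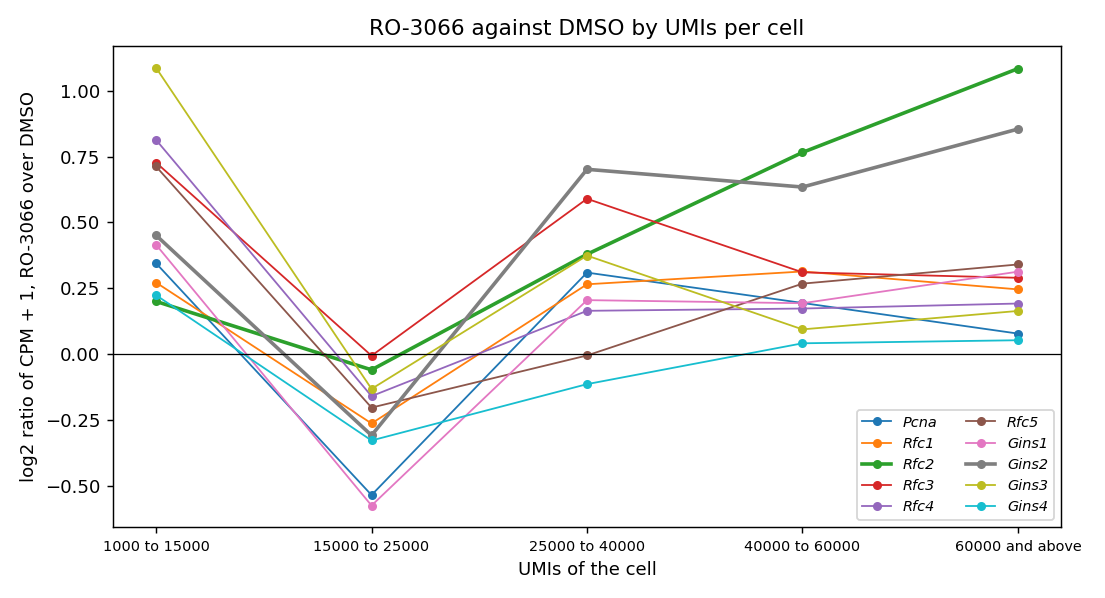
Log2 ratio of CPM plus 1, RO-3066 over DMSO, of each gene in bins of UMIs per cell, with 1 line per gene. The bin of 15000 to 25000 UMIs lies below 0 for all 10 genes, and that of 60000 or more lies above 0 for all 10.

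As a yardstick of free RNA, since no cell type lacking these genes was at hand, members were read in G1 cells with no UMI of the proliferation genes Mki67 and Top2a after thinning (62 RO-3066 and 164 DMSO cells, median 20322.5 and 14098 UMIs). At 10000 UMIs Pcna was found in 62.9% and 72.0% of them, Rfc1 in 71.0% and 77.4%, and Rfc2 in 66.1% and 74.4%. These shares lie below those of all cells and far from 0. They are a stand-in, since G1 cells may transcribe these genes. Rfc3 was at 45.2% and 47.0%, Rfc4 at 29.0% and 39.6%, Rfc5 at 27.4% and 39.6%, Gins2 at 32.3% and 30.5%, and Gins4 at 41.9% and 39.6%. Shares no higher than these were those of Gins4 in RO-3066, over all (40.8%), Pf4-high (39.1%) and other cells (41.0%). In Pf4-high DMSO cells they were those of Rfc1 (67.8%), Rfc2 (73.6%), Gins1 (12.1%) and Gins4 (36.5%). There Gins2 at 32.4% (28.1 to 37.0%) and Rfc3 at 49.9% (45.2 to 54.6%) had intervals that included the yardstick's 30.5% and 47.0%. For these nothing beyond the yardstick is read from the shares, as free RNA and the cells' own transcripts cannot be told apart. Gins1 was found in 3.23% and 12.8%, and Gins3 in 0 of the 62 RO-3066 cells, which allows a share of up to 4.84%, and in 4.88% of the DMSO cells.

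Cell by cell, the members were only weakly related. Over the 45 pairs of genes, Pearson's r of the thinned, log-scaled counts ran from -0.03 to 0.10 in 3556 RO-3066 cells, with a median of 0.03, and from -0.01 to 0.19 in 5748 DMSO cells, with a median of 0.06. The cells share a library and these counts are sparse, so such values are no finding about single pairs. Pcna with Rfc1 was the highest pair in DMSO, at 0.19. Against the mean of the 10, the S score computed without them had an r of 0.41 in RO-3066 and 0.58 in DMSO. The genes most like that mean were Pclaf (0.31), which binds the clamp, Dut (0.25), which clears dUTP, and Lig1 (0.24), which seals nicks, in RO-3066, and Lig1 (0.37), the helicase subunit gene Mcm7 (0.34) and Dut (0.31) in DMSO. Ccne2, Tk1 and Stmn1 were also among the 10 most like genes in both libraries, Tyms and Dctpp1 in RO-3066 and not in DMSO, and Hells, Atad2 and Gmnn in DMSO and not in RO-3066.

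Other genes of the fork were set beside the members, in 7 lists of 72 genes. Of the 61 that reached 20 CPM over all cells, 2 passed the 1.5-fold limit upward in RO-3066 and 2 downward, near the 3.35% and 2.24% of all genes, and the median log2 ratio was 0.02. Those higher were Cdt1, a licensing factor that loads the MCM ring, with 45.7 CPM in RO-3066 and 29.3 CPM in DMSO (1.56-fold), and Cdkn1a, which encodes the clamp-binding CDK inhibitor p21, with 50.7 and 23.7 CPM (2.14-fold). Lower were Pclaf, a clamp-binding factor, with 88.0 and 154.1 CPM (0.571-fold) and Dctd, a deaminase of nucleotide supply, with 17.9 and 27.4 CPM (0.652-fold). Among the other licensing genes Mcm3 had 1.40-fold and Mcm5 1.36-fold. Timeless and Mcm10, which travel with the helicase, had 1.36-fold and 1.34-fold, and Wdhd1 had 0.798-fold. The polymerase delta subunits differed in sign, with Pold1 at 1.44-fold, Pold4 at 1.29-fold and Pold2 at 0.693-fold. On the lagging strand Rpa3 had 0.681-fold, Dna2 0.715-fold and Rnaseh2a 1.12-fold. Of the alternative loaders, which use the small RFC subunits with another large one, Atad5 had 1.17-fold and Rad17 0.932-fold, and Rad1, of the checkpoint clamp that Rad17 loads, had 0.924-fold. Dnmt1, a clamp-bound methyltransferase, had 1.16-fold, and in nucleotide supply Tyms had 0.712-fold and Dut 0.795-fold. In Pf4-high cells 3 of 61 passed the limit upward and 3 downward, below the 7.34% and 7.28% of all genes, and the median was 0.07.

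Some members share bases with a gene on the opposite strand at their 3' ends, where these reads fall. The sources used here do not say whether the counting used strand. Whether reads of such a pair were told apart in the counts was not tested. Rfc2 overlaps Lat2 by 1784 bases, and Lat2 had 37.2 CPM in RO-3066 and 45.3 CPM in DMSO, a lower value where Rfc2 was higher. Gins2 overlaps Gse1 by 2758 bases, and Gse1 had 60.8 and 42.3 CPM over all cells (1.44-fold, as Gins2), and 75.8 and 59.5 CPM in Pf4-high cells (1.27-fold, against 1.89-fold for Gins2). In the other cells Gse1 had 57.9 and 38.0 CPM (1.52-fold, above the 1.36-fold of Gins2). The part of Gse1 in the Gins2 values was not tested. Rfc5 overlaps Wsb2, which had 12.2 CPM in RO-3066 and 9.74 CPM in DMSO over all cells. Rfc4 overlaps Eif4a2, which had 56.6 and 59.4 CPM. Pf4-high over other cells, Wsb2 was 0.644-fold in DMSO and 0.818-fold in RO-3066 (Rfc5 0.620-fold and 0.730-fold). In the same comparison Eif4a2 was 1.04-fold in DMSO and 0.763-fold in RO-3066 (Rfc4 0.752-fold and 0.784-fold). The part of Wsb2 and Eif4a2 in the Rfc5 and Rfc4 values was not tested. Pcna has the processed pseudogenes Pcna-ps1 and Pcna-ps2, which were not analysed here.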

How the data were processed

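For both libraries the authors deposited unnormalized UMI counts, by gene and cell barcode. The build mm10 and Cell Ranger 5.0.1 are named in the submitters' processing notes, whereas per the file headers the matrices came from Cell Ranger 7.1.0. Annotation release, intron counting and strand use: not given in the sources used here. Coordinates are from GENCODE for mm10.

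Barcodes were kept with at least 1000 UMIs, 500 genes and at most 10% mitochondrial UMIs, which left out 84 RO-3066 and 26 DMSO barcodes. Doublets were called per library from simulated doublets among 50 neighbours at 0.8% per 1000 barcodes, which removed 118 RO-3066 (3.11%) and 302 DMSO (4.92%) cells. UMIs were summed over cells and scaled to CPM. Log2 ratios are of CPM plus 1, and folds are ratios of CPM without it. Ratio intervals are exact conditional Poisson intervals, and share intervals are Clopper-Pearson, at 95%. They cover counting error only. With no test possible, genes of at least 20 CPM on 1 side or both were counted against a limit of 1.5-fold. Phases were scored with 40 S and 54 G2M genes, the members left out. Scripts were tested on simulated data. The members, lists and markers were chosen with earlier results of these data known. Genes named are the 10 members, the 3 with the widest ratio over all cells in each further list and the 10 most like the mean of the members in each library, of which 1 is not reported here. Python 3.11.15, numpy 2.4.6, scipy 1.17.1, pandas 2.3.3 and scanpy 1.11.5 were used.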

Additional observations from a re-analysis of the deposited data

Results flagged for a closer look

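For 4 members the sign differed between groups of cells with counting intervals that left out 1 on both sides, and no such difference was tested. In Pf4-high cells the log2 ratio RO-3066 over DMSO was 0.13 for Pcna and 0.14 for Rfc5, against -0.05 and -0.09 in the other cells. The log2 ratio Pf4-high over other cells was 0.22 for Rfc2 and 0.17 for Gins2 in RO-3066, against -0.40 and -0.30 in DMSO. In RO-3066 cells called S, of which 4 were Pf4-high, the Rfc2 value was -0.40 and the Gins2 value -0.27.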

How the results depend on the processing

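No paired analysis was possible because each treatment has 1 library. The median log2 ratio of the members, RO-3066 over DMSO, ran from 0.00 to 0.23 over all cells, from 0.16 to 0.45 in Pf4-high cells and from -0.04 to 0.17 in other cells. Pf4-high over other cells, it ran from -0.28 to 0.02 in RO-3066 and from -0.47 to -0.26 in DMSO. The medians near 0, those of other cells and of Pf4-high over other cells in RO-3066, thus took either sign. The number of members at least 1.5-fold higher in RO-3066 over all cells, 0 as reported, was 1 with median-ratio scaling and 2 in cells called G2M, and 0 under the other alternatives run. The number at least 1.5-fold lower was 0 throughout. Over all cells Rfc2, Rfc3, Gins2 and Gins3 were higher and Gins4 lower in RO-3066 under all 12 alternatives, whereas the sign changed under 3 for Pcna, Rfc4 and Rfc5, 2 for Rfc1 and 4 for Gins1. The Rfc2 log2 ratio ran from 0.20 to 0.68 over all cells and from 0.29 to 1.20 in Pf4-high cells, and that of Gins2 from 0.29 to 0.81 and from 0.32 to 1.12. Of the log2 ratios of single genes under an alternative, 444 stayed within their counting interval and 236 moved beyond it. Of the shares of positive cells, 178 moved beyond theirs and 2 did not when cells were thinned to other depths or left unthinned. Pf4-high cells called S rest on 4 RO-3066 cells.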
